A study of Mus musculus with 6 samples.

Results

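The pancreatic elastase, chymotrypsin-like and carboxypeptidase genes were described by their RNA levels in the pancreas of 3 OCaR1-/- mice and 3 wild-type mice. The genes were taken by symbol from a list of 9 secreted proteases. Of these, 6 had a row among the 12016 genes of the deposited table: the elastase genes Cela1, Cela3a and Cela3b, the chymotrypsin-like gene Ctrl and the carboxypeptidase genes Cpa1 and Cpb1. The other 3 (Cela2a, Ctrb1 and Ctrc) were not analysed here. All mice were untreated males aged 3 weeks. The wild type is given as C57Bl6/N in the protocol and C56Bl6/N in the strain field, which carries the same entry for the knockouts. OCaR1 is the product of Tmem63a, a link that is background knowledge and not part of the labels, and the labels give no design of the allele and no cell type to which its loss would be limited.

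Acinar cells make these proteases as inactive precursors, pack them with other enzymes into zymogen granules and release them into the duct on stimulation. Trypsin activates them in the gut by cutting off a propeptide. Elastases and chymotrypsins are serine endopeptidases that cut within proteins, and the carboxypeptidases are zinc enzymes that then remove residues from the carboxyl end. Their genes are controlled in acinar cells by the PTF1 complex, in which Ptf1a and Rbpjl bind a sequence made of an E-box and a TGGGAA-like box.

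The levels are the authors' FPKM values (fragments counted per kilobase of a transcript and scaled for library size), 1 for each genotype, which combine its 3 mice. No value of a single mouse, SD or standard error stands behind them, and depth is unknown. The spread between mice enters only through the authors' Cuffdiff test, whose q-value is the p-value adjusted over all tested genes. The words called, rose and fell are used of genes with q under 0.05 in the authors' deposited table. Tmem63a itself stood at 4.91 FPKM in knockout mice, against 18.3 FPKM in wild-type mice (log2 fold change -1.90, Cuffdiff q = 0.00152 in the authors' deposited table). FPKM values are per length of transcript, so they were also compared between genes. In whole tissue, fewer acinar cells and less of an RNA per acinar cell cannot be told apart.

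Cela1 fell in the knockout, to 0.440 of its wild-type level. The other 5 members were not called, and their levels differed between the genotypes by at most 10.7%. The authors' deposited table called 1 of the 6 members lower and none higher, where it called 7.54% of all 11478 tested genes, 3.35% lower and 4.2% higher. With q under 0.01 it called 1.84% of all tested genes lower and 0 of the members. By Cuffdiff 0 members rose, and 1 member, Cela1, had an unadjusted p under 0.05 in either direction. Among the 48 tested genes with a mean of at least 1000 FPKM, to which 5 of the 6 members belong, 25% were called, 10.4% lower and 14.6% higher. The median log2 fold change of the members (knockout over wild type, as everywhere below) was 0.018, against -0.033 over the 11441 tested genes with a fold change and 0.15 over the 48 abundant genes. The median size of change without regard to sign was 0.096 on the log2 scale for the members and 0.18 over all tested genes. Cela3b, Ctrl and Cpb1 had positive values and Cela3a and Cpa1 negative ones. With the genotypes scaled to their FPKM outside the digestive enzymes, all 6 were negative, Cela1 at -1.37 and Ctrl nearest to 0 at -0.036. That scaling lowered every gene and put the median of all tested genes at -0.22. Cela3b (-0.092), Ctrl and Cpb1 (-0.087) lay above this median.

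**Figure D1:**
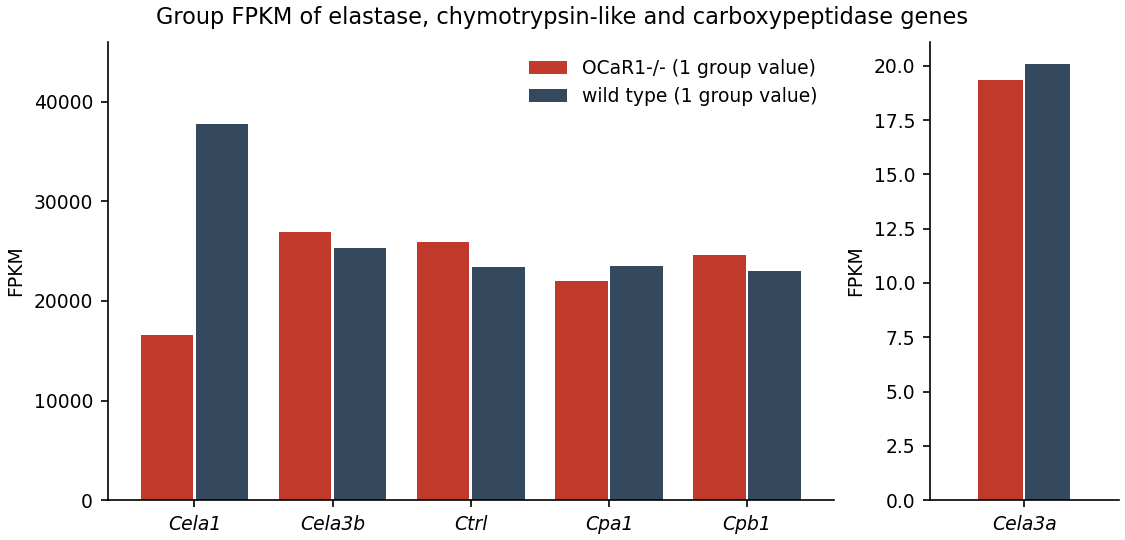
FPKM of the 6 genes in OCaR1-/- (red) and wild-type (dark) pancreas, with 1 group value a genotype and so no error bars; Cela3a has an axis of its own. Cela1 stood at 16591 FPKM in knockout mice, against 37728 FPKM in wild-type mice, and the paired bars of the other genes are close in height.

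Cela1 encodes elastase 1, which in the rodent pancreas is a main elastin-cleaving enzyme and prefers to cut after small residues; in humans its gene is silent in the pancreas. The gene (ENSMUSG00000023031, protein-coding, GRCm38 chromosome 15, 100674425 to 100687920, minus strand) had 16591 FPKM in knockout mice, against 37728 FPKM in wild-type mice. This is a log2 fold change of -1.19, or 2.27-fold lower, with Cuffdiff p = 0.0036 and q = 0.0487 in the authors' deposited table. The gene ranked 13 of all 12016 rows by FPKM in the knockout and 2 in wild type, where only Prss2 was more abundant. It held 2.45% of the summed FPKM of the table in the knockout and 5.75% in wild type. Of the 48 abundant genes it had the lowest log2 fold change.

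Cela3b and Cela3a are neighbouring copies on chromosome 4. Cela3b encodes an elastase-like protease that, as known from the human enzymes, cuts after alanine but digests elastin poorly. Cela3b (ENSMUSG00000023433, protein-coding, GRCm38 chromosome 4, 137420999 to 137430540, minus strand) had 26944 FPKM in knockout mice, against 25317 FPKM in wild-type mice (log2 fold change 0.090, Cuffdiff q = 0.905 in the authors' deposited table). It was the most abundant of the 6 in the knockout and ranked 5 in the whole table in both genotypes. Cela3a (ENSMUSG00000078520, protein-coding, GRCm38 chromosome 4, 137401554 to 137409791, minus strand) had 19.4 FPKM in knockout mice, against 20.1 FPKM in wild-type mice (log2 fold change -0.054, Cuffdiff q = 0.910 in the same table). The level of Cela3b was 1392 times that of Cela3a in the knockout and 1259 times in wild type.

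The 250 bases before the RefSeq start of these elastase genes (GRCm38.p6, read on the minus strand of each gene) are printed because Cela1 is the member that was called, and because Cela3a and Cela3b combine like sequence with levels far apart. Capitals mark E-boxes (CANNTG), the exact letters TGGGAA and the TATA box motif in the form TATAAA. Each was searched on both strands, and none of the marked matches overlap in these sequences. The windows are chr15:100687921-100688170 for Cela1, chr4:137409792-137410041 for Cela3a and chr4:137430521-137430770 for Cela3b.
Cela1: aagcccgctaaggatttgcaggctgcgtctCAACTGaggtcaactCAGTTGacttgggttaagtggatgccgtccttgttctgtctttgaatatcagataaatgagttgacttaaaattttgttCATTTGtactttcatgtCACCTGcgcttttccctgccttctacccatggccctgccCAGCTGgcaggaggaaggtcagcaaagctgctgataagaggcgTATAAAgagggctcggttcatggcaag
Cela3a: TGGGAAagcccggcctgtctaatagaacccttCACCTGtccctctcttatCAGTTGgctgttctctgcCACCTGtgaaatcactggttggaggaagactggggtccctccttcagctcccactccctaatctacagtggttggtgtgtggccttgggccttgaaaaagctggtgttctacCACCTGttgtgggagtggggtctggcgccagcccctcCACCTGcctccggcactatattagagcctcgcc
Cela3b: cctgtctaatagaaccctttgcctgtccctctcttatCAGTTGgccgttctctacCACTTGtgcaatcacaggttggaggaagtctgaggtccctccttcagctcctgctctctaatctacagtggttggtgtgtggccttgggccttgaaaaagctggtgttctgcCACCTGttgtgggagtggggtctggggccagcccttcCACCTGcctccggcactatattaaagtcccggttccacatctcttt

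Cela1 had 5 E-boxes, no TGGGAA and 1 TATAAA, whose first base lies 27 bases before the start. Cela3a had 5 E-boxes and 1 TGGGAA, and Cela3b 4 E-boxes and no TGGGAA, and neither had TATAAA. The TGGGAA of Cela3a is the first stretch of its window, at 250 bases before the start. The Cela3b window begins at the matching sequence further in (cctgtctaat), so the bases that would match this TGGGAA lie outside it. Whether Cela3b has the box there was not examined. The windows of Cela3a and Cela3b were identical at 219 of 237 aligned bases (92.4%). Among the members whose windows are not shown, Ctrl had 4 E-boxes and 1 TGGGAA, Cpa1 had 1 of each, and Cpb1 had 2 E-boxes and no TGGGAA. These motifs are common: over 32851 RefSeq windows of the same length, 66.2% held an E-box, 21.6% TGGGAA, 14.8% both and 12.4% TATAAA. A match is a description of the letters and not of binding. Only the exact letters TGGGAA were searched, so a variant of that box was not counted. A window listed with no TGGGAA, such as that of Cela1, may therefore still hold a TGGGAA-like box.

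The small Cela3a value and the large Cela3b value share sequence in their transcripts as well. The longest protein-coding transcripts in GENCODE M21 (same build) were identical at 870 of 916 aligned bases. Cut into stretches of 50 bases, the length of the reads, 34.2% of the Cela3a transcript and 33.2% of the Cela3b transcript also occurred in the other gene. How reads that map to several places were counted is not given in the sources used here, so the level of Cela3a is uncertain. No such stretch of Cela1, Ctrl, Cpa1 or Cpb1 occurred in a transcript of any other gene. None of the 6 intervals in the table overlapped that of another row. Among the other genes named here, Clps, Cel, Sycn, Gm22133, Rpl13a, Rbpjl, Lxn and C920009B18Rik share part of their interval with another row, where reads could be divided.

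Ctrl encodes a chymotrypsin-like serine protease of the pancreas. The gene (ENSMUSG00000031896, protein-coding, GRCm38 chromosome 8, 105931994 to 105933862, minus strand) had 25941 FPKM in knockout mice, against 23440.1 FPKM in wild-type mice (log2 fold change 0.15, Cuffdiff q = 0.811 in the authors' deposited table). This was the largest positive value among the members. Its nearest neighbour in the table, Pskh1, lies 216 bases away and had 3.83 FPKM in knockout mice, against 3.84 FPKM in wild-type mice.

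Cpa1 and Cpb1 divide the carboxyl ends between them: carboxypeptidase A1 removes aromatic and branched residues, carboxypeptidase B1 lysine and arginine. Cpa1 (ENSMUSG00000054446, protein-coding, GRCm38 chromosome 6, 30639218 to 30645363, plus strand) had 21972 FPKM in knockout mice, against 23509 FPKM in wild-type mice (log2 fold change -0.098, Cuffdiff q = 0.916 in the authors' deposited table). Cpb1 (ENSMUSG00000011463, protein-coding, GRCm38 chromosome 3, 20248264 to 20275733, minus strand) had 24584 FPKM in knockout mice, against 23015 FPKM in wild-type mice (log2 fold change 0.095, Cuffdiff q = 0.930 in the same table). As deposited, the 2 opposite differences cancelled, with a sum of 46556 FPKM in knockout mice, against 46524 FPKM in wild-type mice.

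**Figure D2:**
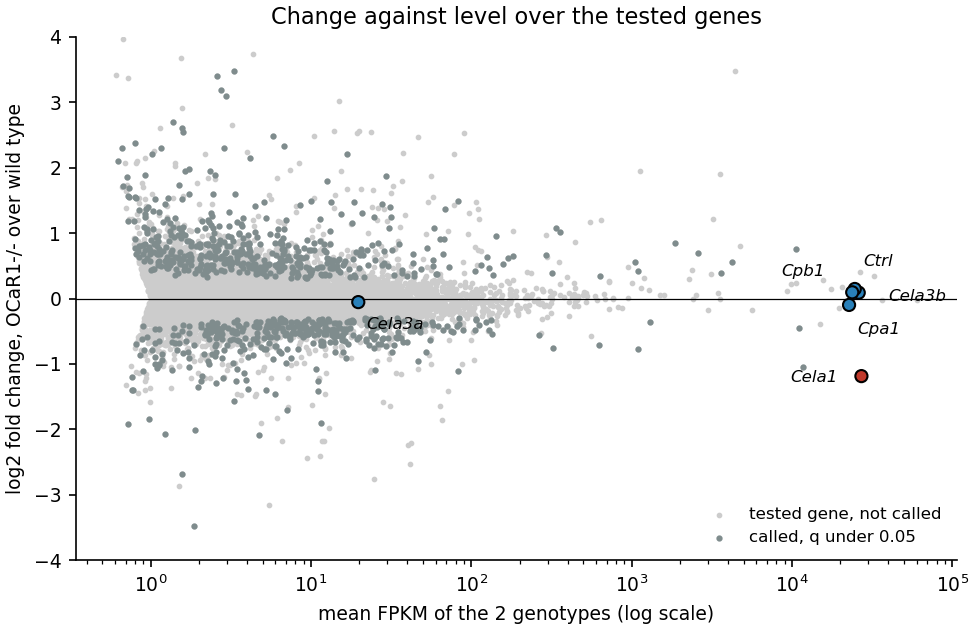
Log2 fold change (knockout over wild type) against the mean FPKM of the genotypes on a log axis for the tested genes, with called genes in dark grey, the 6 members as large points, and Cela1, the called one, in red; 12 genes beyond 4 on the log2 scale are not drawn. Cela3b, Ctrl, Cpa1 and Cpb1 cluster near 0 at the right end, Cela1 lies well below them at -1.19, and Cela3a lies near 20 FPKM.

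The order of the members differed between the genotypes mainly in the place of Cela1. In the knockout the levels ran from Cela3b (26944 FPKM) over Ctrl, Cpb1 and Cpa1 to Cela1 (16591 FPKM) and Cela3a; in wild type Cela1 (37728 FPKM) came before Cela3b, Cpa1, Ctrl, Cpb1 and Cela3a. The 4 genes Cela3b, Ctrl, Cpa1 and Cpb1 lay within 1.23-fold of each other in the knockout and within 1.10-fold in wild type. Without values of single mice, no neighbour in either order can be tested against the next. Cela1 held 14.3% of the FPKM sum over the 6 genes in the knockout and 28.4% in wild type, and the largest gain in share was that of Ctrl, with 22.4% in the knockout and 17.6% in wild type.

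The summed FPKM of the 6 genes was lower in the knockout (log2 ratio -0.20 as deposited). Without Cela1 the log2 ratio was 0.062 as deposited, 0.095 centred on the median of all tested genes and 0.015 scaled to the summed FPKM. Only with the genotypes scaled to their FPKM outside the digestive enzymes was it negative, at -0.12. These alternatives for the sum without Cela1 were chosen after seeing the data. The 6 genes held 17.1% of the summed FPKM of the table in the knockout and 20.3% in wild type. Without Cela1 the share was 14.7% in the knockout and 14.5% in wild type. The 3 elastases summed to 43555 FPKM in knockout mice, against 63065 FPKM in wild-type mice. Of the FPKM of the listed digestive enzyme genes that had a row (the 6 members and 23 further genes), Cela1 held 4.67% in the knockout and 10.1% in wild type. The amylase genes Amy2a1, Amy2a2, Amy2a3, Amy2a4, Amy2a5 and Amy2b had no row, nor had Cela2a, Ctrb1 and Ctrc. The shares and ranks given here leave these genes out.

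Ratios within a genotype do not depend on how the genotypes were scaled to each other. The ratio of Cela1 to Cela3b was 0.616 in the knockout and 1.49 in wild type, and that of Cela1 to Ctrl was 0.640 in the knockout and 1.61 in wild type. Cela1 stood at 0.755 of Cpa1 in the knockout and 1.60 in wild type, and at 0.675 of Cpb1 in the knockout and 1.64 in wild type. The ratio to Prss2, the most abundant trypsinogen gene, was 0.279 in the knockout and 0.624 in wild type. The ratio to Pnlip, the pancreatic lipase gene, was 2.17 in the knockout and 2.40 in wild type, so that these 2 RNAs kept nearly the same proportion.

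**Figure D3:**
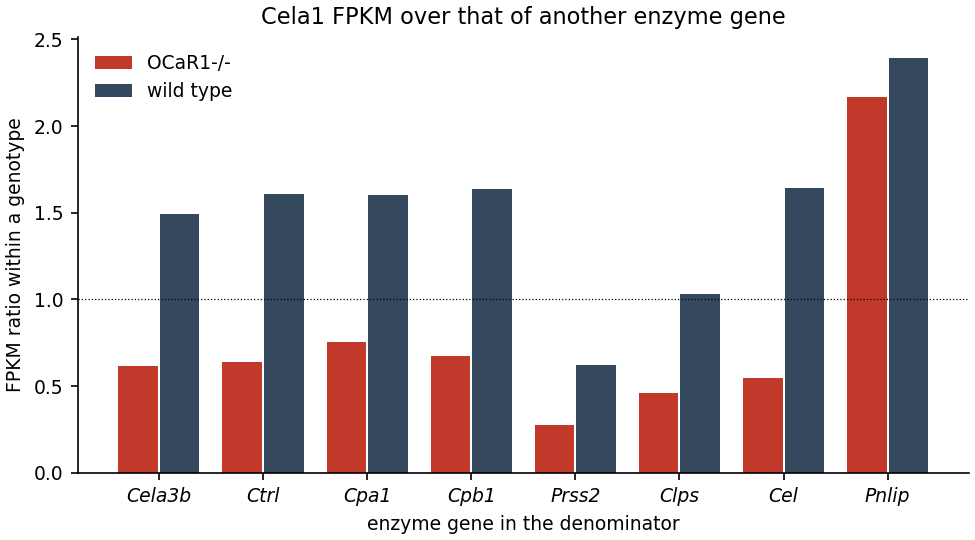
FPKM of Cela1 divided by that of another enzyme gene within OCaR1-/- (red) and within wild-type (dark) pancreas, with 1 group value each and a dotted line at 1. Against Cela3b, Ctrl, Cpa1, Cpb1, Clps and Cel the ratio lay below 1 in the knockout and above 1 in wild type, and against Pnlip it was 2.17 in the knockout and 2.40 in wild type.

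The p-value of Cela1 is unusual for its test statistic. Over the 11441 tested genes with both values, the p-values of the authors' table followed the size of the test statistic closely (Spearman's rho -0.976 across genes, which are not independent replicates). Cela1 had a statistic of 0.472 in size, with a Cuffdiff p = 0.0036 in the authors' deposited table. The 1002 other genes with a statistic within 0.05 of it had a median p of 0.235, and their percentiles 5 and 95 were 0.157 and 0.291. Among these genes only Pnlip, with a statistic of 0.498 and a Cuffdiff p = 0.0028 in the authors' deposited table, had a p as low or lower. The called genes had a median statistic of 1.55, and only 1 of 860, C920009B18Rik, had a smaller one than Cela1.

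The other 5 members lay on the common course of p and statistic. Ctrl, for instance, had a statistic of 0.313 and a Cuffdiff p = 0.442 in the authors' deposited table, where genes with like statistics had a median p of 0.430. The size of the log2 fold change divided by that of the statistic, which grows with the assigned error if the statistic is a change over its error, was 2.51 for Cela1, the highest of the 48 abundant genes, followed by 2.09 for Pnlip. The median of these genes was 0.40, and Cela3b, Ctrl, Cpa1 and Cpb1 had values between 0.467 and 0.710. What sets the p-value of Cela1 apart was not tested, and the values of single mice that would show the spread behind it were not used here.

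**Figure D4:**
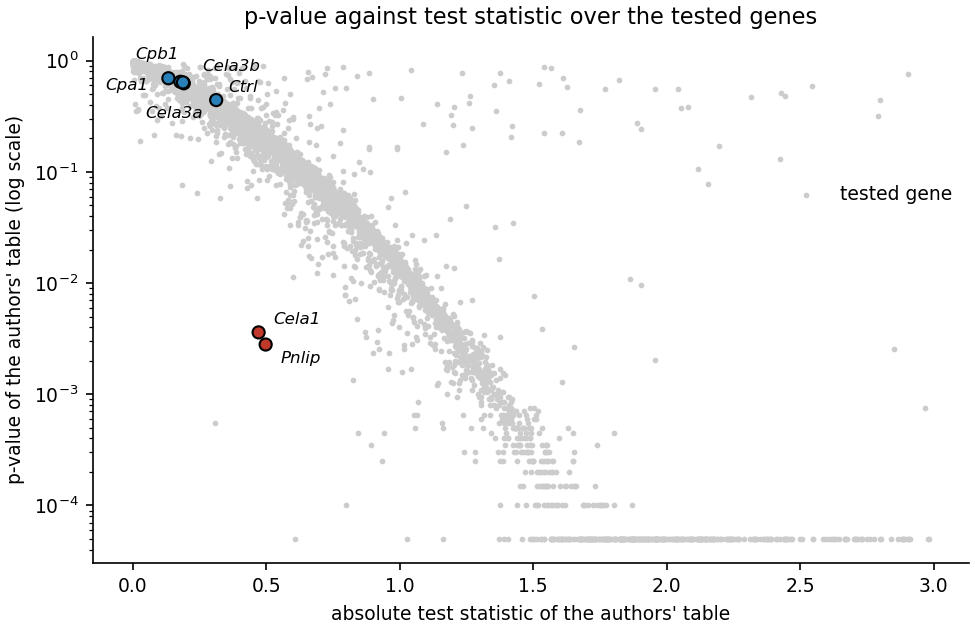
P-value (log axis) against the absolute test statistic, both from the authors' table, for the tested genes with a statistic up to 3, with the 6 members and Pnlip as large points, called ones in red; 97 genes lie beyond 3. Cela1 and Pnlip, at 0.0036 and 0.0028 on the vertical axis, lie far below the band of genes with like statistics, whereas the other members lie in it.

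By closeness of log2 fold change among the abundant genes, over 2 group values only, Pnlip (-1.04), Nupr1, a stress-induced chromatin protein gene (-0.77), and Sycn, which encodes the granule protein syncollin (-0.44), were most like Cela1. All 3 fell in the authors' deposited table. Nearest to the median of the members were Pnliprp2, a lipase-related gene (0.00 on the log2 scale, with 3579 FPKM in both genotypes), Gm22133 and Rpl13a, a ribosomal protein gene, none of them called.

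Among other pancreatic proteases, which include the trypsinogens that activate the members, calls were all higher. By the authors' deposited table, 5 of 14 tested genes rose and none fell, with a median log2 fold change of 0.26. Over all tested genes 4.2% rose. The summed level of the list hardly differed, with 117321 FPKM in knockout mice, against 117170 FPKM in wild-type mice. The 4 with the smallest q were the trypsinogen genes and trypsinogen-like genes Gm5771, Gm10334, Prss3 and Prss1. Prss3 had 458 FPKM in knockout mice, against 217 FPKM in wild-type mice, and Gm5771 had 122 FPKM in knockout mice, against 43.5 FPKM in wild-type mice. Prss1 had 78.8 FPKM in knockout mice, against 37.5 FPKM in wild-type mice. These levels are far below that of Cela1, which had 16591 FPKM in knockout mice, against 37728 FPKM in wild-type mice. Trypsinogens are close copies between which reads could be divided. Prss2 had 59529 FPKM in knockout mice, against 60473 FPKM in wild-type mice (Cuffdiff q = 0.984 in the authors' deposited table).

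Digestive enzymes that are not proteases held 1 call among 9 tested genes, Pnlip, with 7662 FPKM in knockout mice, against 15748 FPKM in wild-type mice (Cuffdiff q = 0.0407 in the authors' deposited table). Their median log2 fold change was -0.016. Clps, which encodes the cofactor of that lipase, had 36063 FPKM in knockout mice, against 36474 FPKM in wild-type mice (Cuffdiff q = 0.984 in the authors' deposited table). In the granule matrix and membrane list 1 of 10 tested genes was called, Sycn, with 9338 FPKM in knockout mice, against 12703 FPKM in wild-type mice (Cuffdiff q = 0.0256 in the same table; list median -0.083). For comparison, 7.54% of all tested genes were called, and 25% of those with a mean of at least 1000 FPKM. A single call in lists this short is therefore no result about the lists. Whether the fall of Cela1 differs from the change of any of these genes was not tested, since the table gives no error for such a difference.

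**Figure D5:**
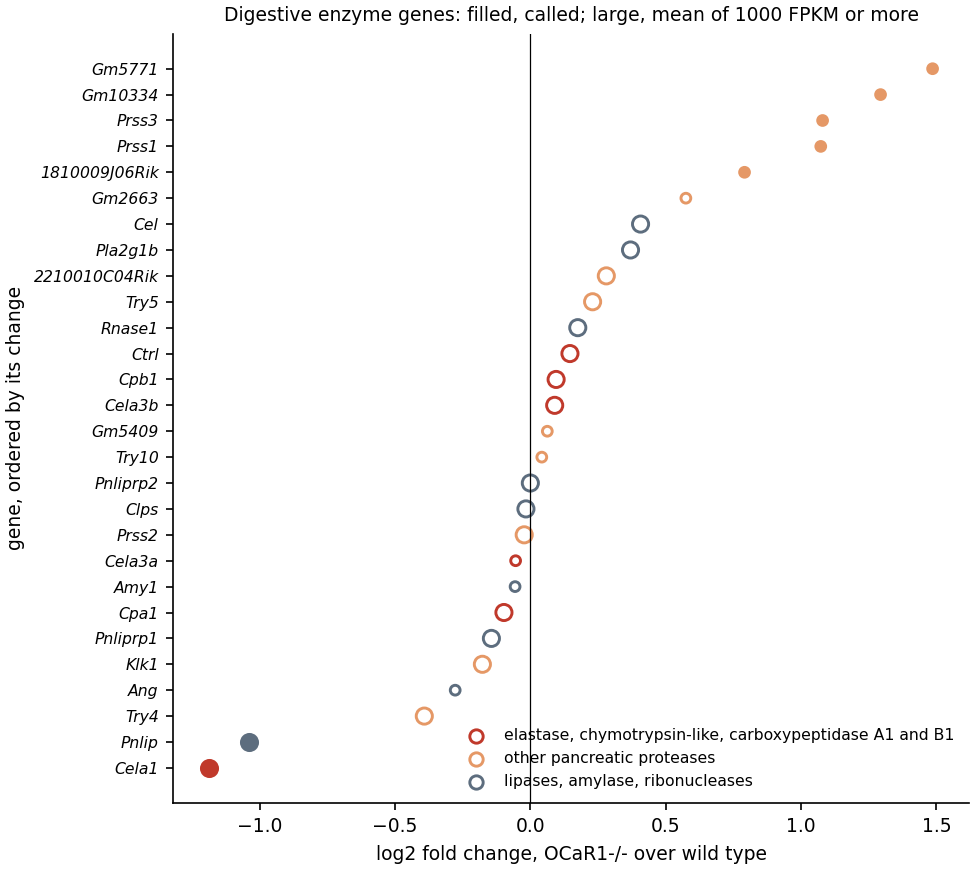
Log2 fold change (knockout over wild type) of 28 of the 29 digestive enzyme genes in order of size, with the 6 members in red, other proteases in orange and the remaining enzymes in grey; filled points were called and large points have a mean of at least 1000 FPKM. Cela1 and Pnlip stand apart at the low end, at -1.19 and -1.04, and the 5 called rises are proteases below 1000 FPKM.

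Genes of the acinar transcription factors that control these enzymes were in part lower. By the authors' deposited table, 4 of 12 tested genes fell and none rose (median log2 fold change -0.25), where 3.35% of all tested genes fell. Ptf1a had 27.2 FPKM in knockout mice, against 40.9 FPKM in wild-type mice (Cuffdiff q = 0.00152 in the authors' deposited table). Foxa3, a forkhead factor gene, had 10.9 FPKM in knockout mice, against 15.2 FPKM in wild-type mice, and Gata4 13.0 FPKM in knockout mice, against 18.9 FPKM in wild-type mice. Nr5a2, a nuclear receptor gene of acinar cells, had 10.6 FPKM in knockout mice, against 13.6 FPKM in wild-type mice (Cuffdiff q = 0.0416 in the same table). Rbpjl, the acinar partner of Ptf1a, had 159 FPKM in knockout mice, against 153 FPKM in wild-type mice (Cuffdiff q = 0.935 in the authors' deposited table).

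Markers of other cell types moved with the genotype, and their part in the level of Cela1 was not tested. Of the macrophage markers the authors' deposited table called 12 of 13 higher, where it called 4.2% of all tested genes higher. Their summed level was 130 FPKM in knockout mice, against 72.9 FPKM in wild-type mice. Of the islet markers 12 of 16 were called higher (sum 4141 FPKM in knockout mice, against 2582 FPKM in wild-type mice), and of the fat cell markers 7 of 10 (216 FPKM in knockout mice, against 104 FPKM in wild-type mice). The stromal list held 8 of 12 higher calls (709 FPKM in knockout mice, against 532 FPKM in wild-type mice) and the endothelial list 4 of 10 (61.8 FPKM in knockout mice, against 48.7 FPKM in wild-type mice). In none of these lists was a marker called lower. Of 10 duct markers 1, Sox9, was higher (summed level 390 FPKM in knockout mice, against 385 FPKM in wild-type mice), and of 7 mast cell markers Kit was the only one tested and was not called (3.17 FPKM in knockout mice, against 1.99 FPKM in wild-type mice). No marker found in the table was listed at 0.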

How the data were processed

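RNA of 6 mouse pancreases was sequenced after poly(A) selection as single reads of 50 bases, per the labels' protocols. The mouse build GRCm38 and the tools Cuffdiff, Cufflinks 2.2.1 and STAR 2.5.1b were used, per the submitters' processing notes. What annotation release, strand setting and scaling they used is not given in the sources used here. For 12016 genes the authors deposited 1 FPKM value per genotype, with the test statistic (a score), p-value and q-value of Cuffdiff, per the file headers; columns of single samples numbered 0.

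Fold changes were recomputed as log2 of knockout over wild type with no pseudocount, since the deposited log2 fold change runs the other way. No test was added. The 11478 genes marked as tested enter the counts; values under 0.01 FPKM counted as listed at 0. Starts were shifted to count from 1. Promoters are RefSeq windows matched by symbol (6 of 6), and transcripts are from GENCODE M21. Lists were described by calls and medians. The adjustment of p-values was tested on simulated data. Python 3.11.15, pandas 2.3.3 and Biopython 1.88 were used.

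The members and lists were chosen with earlier results of these data known. Genes named are all members, called members of the other lists (up to 4 each), Tmem63a and fixed enzyme and factor genes, genes overlapping a member, and those nearest in fold change; Clps, Cel, Pskh1, Kit and C920009B18Rik were chosen after their values were seen. One gene of the other protease list is counted there but is not reported by itself.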

Additional observations from a re-analysis of the deposited data

How the results depend on the processing

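No paired analysis was possible because the table holds 1 value per genotype, and leaving out single mice was not run for the same reason. The fall of Cela1 stands close to the threshold: 7 called genes had a larger q, the lowest q without a call was 0.0501, and with q under 0.01 the count of members called lower was 0. Its q was 0.0481 when p-values were adjusted again over the same genes, and 0.0425 over the 5826 genes with at least 5 FPKM in either genotype. Pseudocounts of 0.5 and 1, centring on the median of all tested genes and scaling to the summed FPKM moved no member by over 0.1 on the log2 scale.

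Scaling to the summed FPKM without the digestive enzymes shifted every gene, with a median of -0.22 over all tested genes. It gave log2 fold changes of -1.37 for Cela1, -0.24 for Cela3a, -0.092 for Cela3b, -0.036 for Ctrl, -0.28 for Cpa1 and -0.087 for Cpb1, so that the uncalled differences of Cela3b, Ctrl and Cpb1 turned negative. The median of the members was then -0.16 and the log2 ratio of their sums -0.38, against -0.20 as deposited. Without Cela1 that ratio was 0.062 as deposited and turned to -0.12 under this scaling, an alternative chosen after seeing the data.

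With q under 0.01 the table called 311 genes higher and 211 lower, and the count fell to 0 among non-protease digestive enzymes and in the granule list and to 2 among acinar transcription factors. With q under 0.1 the count was 2 among non-protease digestive enzymes, 2 in the granule list, 5 among protease inhibitors and 2 among duct markers. Over genes with at least 5 FPKM in either genotype, 241 were called higher, and the count was 4 among macrophage markers and 0 among duct markers. This filter took out called genes of lower level, such as Sox9, with 3.86 FPKM in knockout mice, against 2.61 FPKM in wild-type mice. Every macrophage marker that lost its call was taken out in this way, being under 5 FPKM in both genotypes. Among non-protease digestive enzymes the count was 2, with p-values adjusted over fewer genes. Without values of single mice, how far a single mouse carries the fall of Cela1 was not tested.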

Other observations

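Inhibitors of digestive and tissue proteases were in part higher in the knockout. By the authors' deposited table, 3 of 11 tested genes rose and none fell (median log2 fold change 0.26). Over all tested genes 4.2% rose, and the calls of this short list were not tested as a set. Spink3, the trypsin inhibitor gene of acinar cells, had 4105 FPKM in knockout mice, against 3127 FPKM in wild-type mice, Serping1, the gene of the complement C1 inhibitor, had 17.3 FPKM in knockout mice, against 11.6 FPKM in wild-type mice, and Serpina10, the gene of an inhibitor of clotting proteases, had 11.2 FPKM in knockout mice, against 8.28 FPKM in wild-type mice. Lxn, which encodes an inhibitor of A-type carboxypeptidases, had 10.6 FPKM in knockout mice, against 11.8 FPKM in wild-type mice (Cuffdiff q = 0.784 in the authors' deposited table).

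Among carboxypeptidases of the same family that are not digestive enzymes, calls went in both directions. By the authors' deposited table, 2 of 7 tested genes rose and 1 fell (median log2 fold change 0.34). Over all tested genes 4.2% rose and 3.35% fell. The list is short, and its calls were not tested as a set. Cpe, which trims prohormones in endocrine cells, had 44.5 FPKM in knockout mice, against 35.2 FPKM in wild-type mice, beside 12 of 16 islet markers called higher. Aebp1, whose product is found in connective tissue and lacks a full catalytic site, had 5.97 FPKM in knockout mice, against 4.31 FPKM in wild-type mice, beside 8 of 12 stromal markers called higher. Cpn1, the gene of the catalytic subunit of a plasma carboxypeptidase, had 35.9 FPKM in knockout mice, against 49.1 FPKM in wild-type mice and was the one that fell (Cuffdiff q = 0.00152 in the authors' deposited table). The part of other cells in these values was not tested.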
